A study of Mus musculus with 12 samples.

Results

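The 10 stem cell transcription factors described here are Gata2, Runx1, Meis1, Tal1, Lmo2, Lyl1, Erg, Fli1, Gfi1 and Spi1, taken by gene symbol from an expression table of 22548 genes, in which all 10 were found. The table holds RNA-seq libraries of long-term hematopoietic stem cells (HSCs) of C57BL/6 mice, made to ask how these cells change with age and whether inhibition of the small GTPase Cdc42 in aged cells alters their expression. Young mice were 2 to 4 months old (n = 4 libraries, labelled replicates 2 to 5) and aged mice were 20 to 26 months old (n = 5, labelled replicates 0 and 2 to 5). A further group of aged HSCs was treated with 5 µM CASIN, a Cdc42 inhibitor (n = 3, labelled replicates 1 to 3). All groups were incubated for 16 h at 3% oxygen, per the labels, so that the untreated cells were also cultured. Each library was made from a pool of at least 200 sorted cells per the series description, and the study's methods give a larger pool. The study's methods state that mice were female unless noted otherwise. The labels do not tie a library to one mouse, so p-values measure the spread between these libraries, which may be partly technical.

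These factors form a network that keeps HSCs in their undifferentiated state. Several bind DNA as one complex, in which Tal1 or Lyl1 pairs with an E protein, Lmo2 and Ldb1 bridge to a GATA factor, and the ETS factors Erg and Fli1 and the core binding factor Runx1 sit at neighbouring sites. Meis1 acts with PBX and HOX proteins, Gfi1 is a zinc finger repressor that restrains HSC proliferation, and Spi1 (PU.1) is an ETS factor best known for directing myeloid and lymphoid fates.

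All values below are the deposited log2 expression values, which had been quantile normalized, and a gene was called detected in a library where it lay above the lowest value of that library. The number of genes detected was 6078 to 9673 in young, 11463 to 17621 in aged, and 6845, 20013 and 7288 in CASIN-treated replicates 1 to 3. CASIN-treated replicate 2 thus stood apart from the other libraries of its group, and differences of the 10 factors from that group are given with and without it. The files hold no read counts, so depth is unknown, and how depth, cell number and RNA content contributed to detection was not tested. Defining HSC markers were unevenly detected. Kit, the stem cell factor receptor of the sort gate, was at the lowest value in 4 of 4 young, 2 of 5 aged and 2 of 3 CASIN-treated libraries. Ly6a (Sca-1) was not detected in any young library and reached at most 1.79 elsewhere. Of 10 HSC markers a median of 3 was detected in young, 7 in aged and 4 in CASIN-treated libraries. None of the 10 was detected in all 12 libraries, although Hlf was detected in 11. Of 5 T cell markers, Cd3d lay between 8.26 and 9.98 in every library, and Cd8a was also detected in all 12. In contrast, Cd3g and Lck were not detected in any young library, and Cd3e was detected in 1 of 4. Hbb-bt, Hbb-bs and Prtn3, marking erythroid and myeloid cells, were not detected in any library. Other genes of those lists were, such as Epor in 7 and Csf1r in 9 libraries. The study's gate takes cells negative for Flk2 (Flt3) and negative or low for CD34. Flt3 was detected in 1 of 4 young, 5 of 5 aged and 1 of 3 CASIN-treated libraries, and Cd34 in 1, 4 and 1. Of the other progenitor markers, Il7r was detected in all 12 libraries (3.88 to 7.21), Dntt in 3 and Cd48 in none. The sorted phenotype was therefore taken from the labels and was not visible in these markers.

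Promoter windows of the factors are shown here because the motifs in them are those the factors themselves bind. RefSeq (GRCm38.p6) gave windows of 250 bases before to 50 bases after a start for 7 of the 10 factors, 13 windows in all, and Lmo2, Fli1 and Spi1 had none in the table. Both strands were searched for GATAA (GATA factors), GGAAG (ETS factors), CAGNTG (the E-box of Tal1 and Lyl1), TGTGGT (RUNX) and TGACAG (MEIS). The window with the most matches is printed for Meis1 and Runx1, the factors detected in every library, and for Erg, the factor whose aged libraries separated from both other groups. Capitals mark the motif matches, none of which overlap in these windows. The Meis1 window lies at chr11:19018920-19019219, the Runx1 window at chr16:92826025-92826324 and the Erg window at chr16:95459299-95459598, all on the minus strand and written 5′ to 3′.
Meis1: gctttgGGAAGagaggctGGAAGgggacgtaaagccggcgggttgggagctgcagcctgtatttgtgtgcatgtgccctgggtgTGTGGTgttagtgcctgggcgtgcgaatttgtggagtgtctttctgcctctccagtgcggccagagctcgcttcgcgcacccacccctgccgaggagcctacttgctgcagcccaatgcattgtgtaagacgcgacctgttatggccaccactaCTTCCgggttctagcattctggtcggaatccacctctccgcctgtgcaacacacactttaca
Runx1: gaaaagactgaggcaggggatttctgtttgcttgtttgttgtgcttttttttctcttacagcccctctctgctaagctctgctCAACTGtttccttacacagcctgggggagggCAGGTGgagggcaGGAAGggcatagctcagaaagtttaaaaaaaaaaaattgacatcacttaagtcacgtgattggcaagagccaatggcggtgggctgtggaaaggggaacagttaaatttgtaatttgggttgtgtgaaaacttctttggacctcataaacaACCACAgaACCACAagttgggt
Erg: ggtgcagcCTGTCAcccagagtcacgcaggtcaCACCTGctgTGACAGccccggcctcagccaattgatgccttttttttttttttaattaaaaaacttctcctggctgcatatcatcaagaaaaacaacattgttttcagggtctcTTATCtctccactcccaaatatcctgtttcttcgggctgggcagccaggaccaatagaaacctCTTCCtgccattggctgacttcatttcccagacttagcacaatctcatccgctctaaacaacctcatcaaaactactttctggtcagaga
The Meis1 window held 3 ETS matches and 1 RUNX match. The Runx1 window held 2 RUNX matches, 2 E-boxes and 1 ETS match. The Erg window held 2 MEIS matches and 1 match each for GATA, ETS and the E-box. Of all 32817 windows, 71.4% held the ETS letters, 51.4% the E-box, 25.4% the GATA letters, 19.2% the MEIS letters and 16.8% the RUNX letters. Among the 13 windows of the factors these were held by 7, 6, 2, 1 and 2 windows in the same order. A match describes letters in the window and not a bound site.

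The factors were unequally visible in the libraries. Runx1 and Meis1 were detected in all 12 libraries, as were 2143 of the 22548 genes (9.50%). Fli1 was detected in 11. Gata2, Tal1, Lyl1 and Erg were each detected in 6, Lmo2 and Gfi1 in 5, and Spi1 in 3. Young libraries detected 4 to 6 of the 10 factors (median 5), aged libraries 5 to 8 (median 7), and CASIN-treated replicates 1 to 3 detected 4, 9 and 4. The highest count was thus in the CASIN-treated library with the most genes detected. Over all pairs of a factor and a library, 50% were detected in young, 70.0% in aged and 56.7% in CASIN-treated libraries, beside 34.3%, 62.6% and 50.5% of pairs over all genes. In RNA from pooled cells, fewer cells expressing a factor and less RNA of it per cell cannot be told apart. The unit before the log was taken is not stated, so the factors were not ranked against each other by level.

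**Figure D1:**
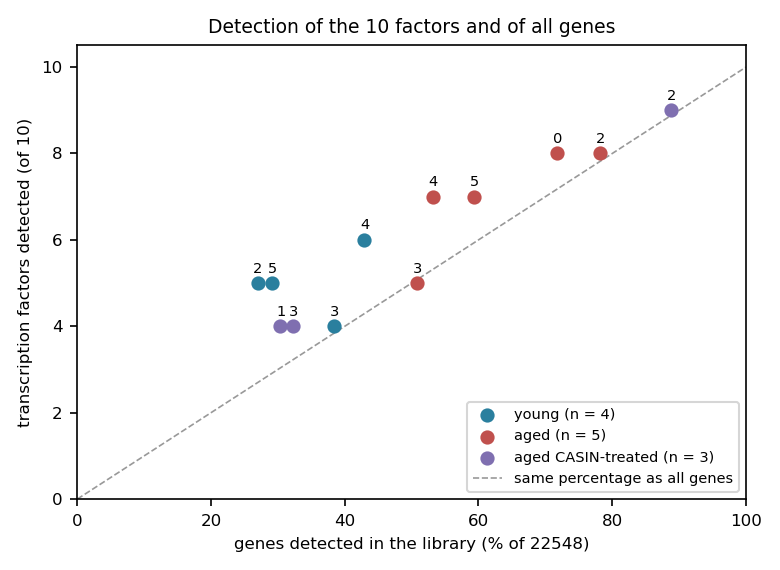
Number of the 10 stem cell transcription factors detected in each library (y axis) against the percentage of all 22548 genes detected in it (x axis), with 1 point per library, coloured by group and labelled by replicate, and a dashed line where both percentages are equal. The 4 young libraries lie at the left with 4 to 6 factors, the 5 aged libraries in the middle with 5 to 8, and CASIN-treated replicate 2 at the far right with 9.

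**Figure D2:**
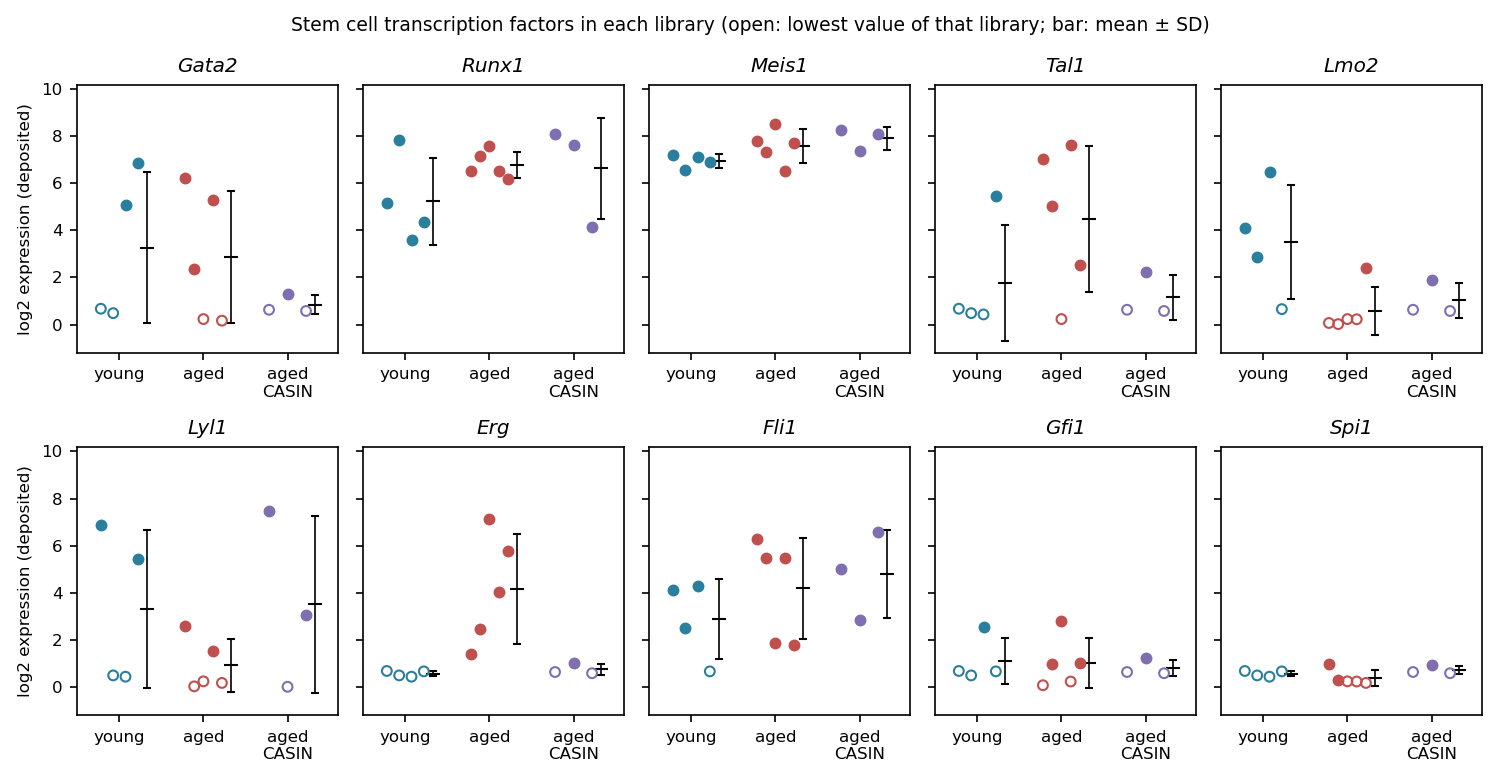
Deposited log2 value (y axis) of each factor in each of the 12 libraries, by group, with filled points for libraries in which the factor was detected, open points for the lowest value of the library, and bars for the mean ± SD. Meis1 is detected in every library and varies little, while Erg is filled in all 5 aged libraries, in no young library and in 1 CASIN-treated library.

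Differences between groups were tested with limma over all 22548 genes. No factor passed an adjusted p of 0.05 in any of the 3 comparisons. At that threshold the share of all genes called was 0.0177% for young against aged (4 genes), 0.0222% for CASIN-treated against aged (5 genes) and 0% for young against CASIN-treated HSCs. At an unadjusted p under 0.05, the factors called were Erg and Lmo2 for young against aged, beside 5.33% of all genes (1202). Only Erg was called for CASIN-treated against aged HSCs, beside 4.4% of all genes (993). None was called for young against CASIN-treated HSCs, beside 4.29% of all genes (968). These comparisons share libraries, since the aged HSCs enter the first and the second, so their results are not independent. The median difference over the 10 factors was -0.28 for young minus aged, 0.081 for CASIN-treated minus aged and -0.16 for young minus CASIN-treated, beside medians over all genes of -0.017, -0.038 and 0.092. In the first and second comparisons 5 factors were higher and 5 lower, and in the third 4 were higher and 6 lower. With one common lowest value the first comparison had 3 higher and 7 lower, and with centring the second had 7 higher and 3 lower, so these tallies depend on the setting.

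**Figure D3:**
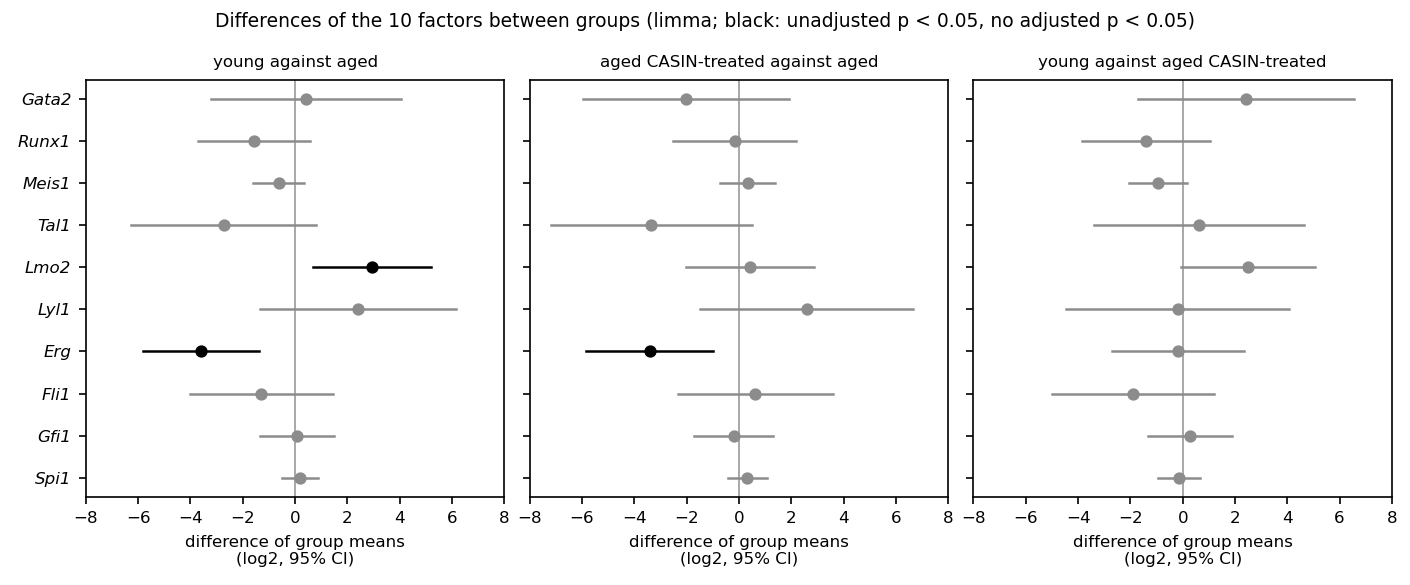
Difference in mean log2 value of each factor for the 3 comparisons (x axis, log2 units, first group minus second), with 95% confidence intervals from limma. The intervals of Erg lie below 0 for young against aged and for CASIN-treated against aged, the interval of Lmo2 lies above 0 for young against aged, and the other intervals include 0.

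Among the ETS factors, Erg, which is required to maintain adult HSCs (chr16:95359169-95586593 in mm10, as all gene positions here, minus strand, protein coding like the other 9 factors), showed the clearest separation by age. Its values were 1.37, 2.46, 7.12, 4.04 and 5.78 in aged replicates 0 and 2 to 5, it was at the lowest value in young replicates 2 to 5, and it was detected at 1.02 in CASIN-treated replicate 2 and not in replicates 1 and 3. Every aged library was thus above every young and every CASIN-treated library, although the aged values themselves spread widely. Erg was 3.60 log2 units lower in young than in aged HSCs (difference -3.60, SE 1.01, 95% interval -5.82 to -1.38, unadjusted p = 0.00451, adjusted p = 0.558, limma). CASIN-treated HSCs differed from aged HSCs by -3.42 (SE 1.09, unadjusted p = 0.0100, adjusted p = 0.948, limma), and by -3.55 without CASIN-treated replicate 2 (SE 1.32, unadjusted p = 0.0233, limma). With limma-trend the unadjusted p for CASIN-treated against aged was 0.0525, above the threshold. Young and CASIN-treated HSCs differed by -0.18 (95% interval -2.71 to 2.35, and -0.042 without replicate 2). This interval, like the p-values above, uses a spread shared by the 3 groups. The SD was 0.12 in young, 0.24 in CASIN-treated and 2.35 in aged HSCs. Most young and CASIN-treated values of Erg were the lowest of their library, so the interval does not bound a difference in expression. The groups did not overlap for 2.35% of all genes for young against aged and for 2.31% for CASIN-treated against aged, and Erg was the only factor among them in both.

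The pattern of Erg was shared by other genes. Of the 22548 genes, 333 (1.48%) were detected in all 5 aged and in none of the 4 young libraries, and 160 of these were detected in 1 of 3 CASIN-treated libraries. That library was replicate 2 for 156 of the 160. The aged libraries and CASIN-treated replicate 2 are also the 6 libraries with the most genes detected, so the libraries with Erg are those with more genes detected overall. With the percentage of genes detected as a covariate in the limma fit, Erg differed by -4.35 for young minus aged (unadjusted p = 0.00767) and by -3.74 for CASIN-treated minus aged (unadjusted p = 0.00970). Young (27.0% to 42.9%) and aged libraries (50.8% to 78.1%) did not overlap in that percentage. The fit therefore extrapolates between them and cannot separate age from detection. Because young libraries entered at their lowest value, the fitted difference depends on that value. For young minus aged it lay between -4.78 and -3.14 over the other settings tried and between -4.29 and -2.85 with 1 library left out.

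Fli1, the close relative of Erg (chr9:32422204-32542861, minus strand), was detected in 11 libraries. Its values were 4.11, 2.50, 4.29 and the lowest value in young replicates 2 to 5, 6.27, 5.47, 1.88, 5.48 and 1.79 in aged replicates, and 5.01, 2.83 and 6.56 in CASIN-treated replicates 1 to 3. The groups overlapped throughout, and the aged libraries held both high and low values. Mean values ordered as young 2.89 ± 1.69 (SD, n = 4), aged 4.18 ± 2.16 (n = 5) and CASIN-treated 4.80 ± 1.87 (n = 3), and no neighbours in that order differed beyond their spread. Between young and aged HSCs the difference was -1.29 (95% interval -4.01 to 1.43, unadjusted p = 0.318). CASIN-treated minus aged HSCs gave 0.62 (SE 1.34), which was 1.61 without CASIN-treated replicate 2 and -0.26 without replicate 3. Young minus CASIN-treated was -1.91 (SE 1.40), which was -2.90 without replicate 2 and -1.03 without replicate 3.

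Spi1 (chr2:91082390-91115756, plus strand) was the least detected factor. It was found at 0.98 and 0.29 in aged replicates 0 and 2 and at 0.91 in CASIN-treated replicate 2, and was at the lowest value in the other 9 libraries. The libraries that detected it are the 3 with the most genes detected. Its differences of 0.18 for young minus aged, 0.33 for CASIN-treated minus aged (0.23 without replicate 2) and -0.14 for young minus CASIN-treated (-0.042 without replicate 2) are of the size of the gaps between the libraries' lowest values, which run from 0 to 0.67, and carry no direction of expression.

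Runx1, the DNA-binding subunit of core binding factor (chr16:92601466-92826149, minus strand), was detected in every library. It measured 5.14, 7.83, 3.58 and 4.37 in young replicates 2 to 5, 6.54, 7.15, 7.57, 6.54 and 6.19 in aged replicates 0 and 2 to 5, and 8.10, 7.64 and 4.15 in CASIN-treated replicates 1 to 3. Aged libraries were close together, whereas young replicate 3 and CASIN-treated replicate 3 each lay far from the rest of their group, so that all groups overlapped. Mean values were 5.23 ± 1.85 (SD) in young, 6.63 ± 2.16 in CASIN-treated and 6.80 ± 0.55 in aged HSCs, with no neighbours apart beyond their spread. Between young and aged HSCs the difference was -1.57 (95% interval -3.72 to 0.58, unadjusted p = 0.137), and -2.43 without young replicate 3 (unadjusted p = 0.0185) and -1.02 without young replicate 4. CASIN-treated minus aged was -0.17 (SE 1.06), which became 1.07 without CASIN-treated replicate 3 and -0.67 without replicate 2. Young minus CASIN-treated was -1.40 (95% interval -3.85 to 1.05). That difference was -2.64 without CASIN-treated replicate 3 (unadjusted p = 0.0269), -2.27 without young replicate 3 (unadjusted p = 0.0411), -0.90 without CASIN-treated replicate 2, -0.85 without young replicate 4 and -0.67 without CASIN-treated replicate 1.

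Meis1, a TALE homeodomain factor needed for HSC quiescence (chr11:18879817-19018985, minus strand), was the most evenly measured factor. It measured 7.20, 6.58, 7.12 and 6.89 in young, 7.80, 7.32, 8.53, 6.54 and 7.71 in aged, and 8.28, 7.36 and 8.09 in CASIN-treated libraries. The lowest CASIN-treated library lay above the highest young library, while the aged libraries reached from below all young libraries to above all others. The SD within groups was 0.56, and only 9.05% of the 2143 genes detected in every library had a smaller one, beside 64.9% for Runx1 (SD 1.52). Mean values ordered as young 6.95 ± 0.28 (SD), aged 7.58 ± 0.73 and CASIN-treated 7.91 ± 0.49, without a difference that passed the adjusted test. Young minus CASIN-treated HSCs was -0.96 (SE 0.50, unadjusted p = 0.0836, adjusted p = 0.9995, limma) and -1.24 without CASIN-treated replicate 2 (unadjusted p = 0.0457). Groups that did not overlap in that comparison made up 2.3% of all genes, and Meis1 was the only factor among them. The difference of young minus aged was -0.63 (95% interval -1.61 to 0.35), and CASIN-treated minus aged was 0.33 (95% interval -0.73 to 1.39), or 0.60 without replicate 2. Centring each library on the genes detected in all 12 moved young minus aged to -0.18, since that scaling shifts the whole comparison by 0.45.

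Of the factors of the GATA and E-box complex, Lmo2, the LIM-only bridging protein without DNA binding of its own (chr2:103957986-103981878, plus strand), was higher in young HSCs. It measured 4.11, 2.85 and 6.47 in young replicates 2 to 4, was at the lowest value in young replicate 5, and was detected in only 1 aged library, at 2.40 in replicate 5. Of the CASIN-treated libraries, only replicate 2 detected it, at 1.88. Young replicate 5 is the library that overlapped with the other groups. Young minus aged was 2.93 (SE 1.02, 95% interval 0.68 to 5.18, unadjusted p = 0.0154, adjusted p = 0.764, limma), with 1.95 without young replicate 4 and 3.89 without young replicate 5. Every young library detected fewer genes overall than every aged library, and with the percentage of genes detected as a covariate young minus aged was 3.61 for Lmo2 (unadjusted p = 0.0220, limma). Here too that fit extrapolates and cannot separate age from detection. Young minus CASIN-treated was 2.49 (SE 1.16, unadjusted p = 0.0553), and 2.92 without CASIN-treated replicate 2 (unadjusted p = 0.0578), 1.51 without young replicate 4 and 3.45 without young replicate 5 (unadjusted p = 0.00550). CASIN-treated minus aged was 0.44 (95% interval -2.01 to 2.89), and 0.014 without replicate 2.

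Tal1 (SCL), the basic helix-loop-helix factor of the complex (chr4:115056426-115071755, plus strand), was detected in 1 of 4 young, 4 of 5 aged and 1 of 3 CASIN-treated libraries. Its values were 5.48 in young replicate 5, 7.04, 5.02, 7.64 and 2.54 in aged replicates 0, 2, 4 and 5, and 2.25 in CASIN-treated replicate 2. The 2 highest values were aged, but young replicate 5 and aged replicate 3, where it was not detected, made the groups overlap. The young minus aged difference was -2.73 (SE 1.60, unadjusted p = 0.116), and CASIN-treated minus aged was -3.34 (SE 1.74, unadjusted p = 0.0812), or -3.89 without replicate 2 (unadjusted p = 0.0920). Without aged replicate 3 these were -3.80 (unadjusted p = 0.0225) and -4.41 (unadjusted p = 0.0159), and without young replicate 5 young minus aged was -3.97 (unadjusted p = 0.0268). With other single libraries left out, young minus aged was as weak as -1.94 (unadjusted p up to 0.248, limma). CASIN-treated minus aged was as weak as -2.56 (unadjusted p up to 0.174, limma). Over the other settings the weakest differences were -1.83 and -1.23 (unadjusted p up to 0.407 and 0.604, limma). Young minus CASIN-treated was 0.61 (95% interval -3.40 to 4.63), and 1.16 without CASIN-treated replicate 2.

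Lyl1, which is closely related to Tal1 and can stand in for it in adult HSCs (chr8:84701457-84704715, plus strand), gave a different order of values. It measured 6.89 and 5.44 in young replicates 2 and 5, 2.58 and 1.53 in aged replicates 0 and 4, and 7.47 and 3.03 in CASIN-treated replicates 1 and 3, and was at the lowest value in the other 6 libraries. No aged library exceeded the detected values of the other groups, yet undetected libraries in each group made all overlap. For young minus aged the difference was 2.41 (SE 1.70, unadjusted p = 0.185) which was 1.21 without young replicate 2 and -0.23 with the percentage of genes detected as a covariate. CASIN-treated minus aged was 2.59 (SE 1.85, unadjusted p = 0.189), and 4.34 without CASIN-treated replicate 2 (unadjusted p = 0.0484, adjusted p = 0.694) but 0.61 without CASIN-treated replicate 1 (unadjusted p = 0.742). Young minus CASIN-treated was -0.19 (95% interval -4.45 to 4.08), with -1.94 without CASIN-treated replicate 2 and 1.79 without replicate 1. Lyl1 overlaps Nfix on the opposite strand, which is also in the table, and the sources used here do not say if the counting used strand.

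Gata2, the zinc finger factor that maintains the HSC pool (chr6:88193891-88207032, plus strand), was detected in 2 of 4 young, 3 of 5 aged and 1 of 3 CASIN-treated libraries. It measured 5.07 and 6.85 in young replicates 4 and 5, 6.22, 2.38 and 5.30 in aged replicates 0, 2 and 4, and 1.31 in CASIN-treated replicate 2. Young and aged libraries held both high and undetected values, and the CASIN-treated libraries were all low. The difference was 0.41 for young minus aged (95% interval -3.22 to 4.04), -2.02 for CASIN-treated minus aged (SE 1.79, unadjusted p = 0.284, and -2.26 without replicate 2) and 2.43 for young minus CASIN-treated (SE 1.87, and 2.67 without replicate 2). Gata2 and Tal1 were detected together in 5 libraries and were both undetected in another 5, with a Pearson correlation of 0.74 over the 12 libraries, the highest among the 45 pairs of factors. The lowest was -0.69, for Erg and Spi1. The points share the libraries' differences in detection, and these correlations are descriptions.

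Gfi1 (chr5:107716657-107726036, minus strand) was detected at 2.54 in young replicate 4, at 0.98 to 2.79 in aged replicates 2, 3 and 5, and at 1.21 in CASIN-treated replicate 2. These were low values, and the groups overlapped. Young minus aged was 0.078 (SE 0.63), CASIN-treated minus aged was -0.21 (SE 0.69, and -0.41 without replicate 2) and young minus CASIN-treated was 0.28 (SE 0.72, and 0.49 without replicate 2).

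The partner proteins, paralogs, other stem cell factors and targets of the network were read from lists. Of 16 partners and cofactors, 1 was higher and none lower in young than in aged HSCs at an unadjusted p under 0.05, none was called for CASIN-treated against aged, and 1 was higher and 1 lower for young against CASIN-treated. Of 17 paralogs, 2 were higher in young than in aged HSCs, 1 was higher and 1 lower in CASIN-treated than in aged, and 1 was higher in young than in CASIN-treated. These calls made up 6.25% of partners and 11.8% of paralogs for young against aged, beside 5.33% of all genes. For CASIN-treated against aged they were 0% and 11.8%, beside 4.4%, and for young against CASIN-treated they were 12.5% and 5.88%, beside 4.29%. None of 12 other stem cell factors (such as Hlf, Mecom and Myb) and none of 14 known targets (such as Csf1r and Itga2b) was called in any comparison. No gene of these lists passed an adjusted p of 0.05 with limma. For young minus aged the median difference was -0.57 over partners, -0.52 over paralogs, 0.19 over other stem cell factors and 0.059 over targets, beside -0.017 over all genes. Centring adds 0.45 to each of these medians, including that of all genes.

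Ssbp3, a single-stranded DNA binding protein that stabilizes Ldb1 in the complex, was the partner higher in young HSCs. It measured 7.89, 7.66, 6.77 and 4.64 in young replicates 2 to 5, and 2.40, 0.29, 1.30 and 2.48 in aged replicates 0, 2, 4 and 5, with aged replicate 3 undetected. Among CASIN-treated libraries only replicate 2 detected it, at 1.37. Every young library lay above every aged and every CASIN-treated library. Young minus aged was 5.40 (SE 0.75, unadjusted p = 2.12e-05, adjusted p = 0.0811, limma) and young minus CASIN-treated was 5.88 (SE 0.86, adjusted p = 0.148, limma), or 6.14 without CASIN-treated replicate 2 (adjusted p = 0.0626). The adjusted p for young against aged was 0.0380 when libraries were centred on commonly detected genes and 0.00951 without young replicate 5, and over all alternatives it ranged up to 0.776.

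Kdm1a (LSD1), the histone demethylase recruited by Gfi1, was not detected in any young library, measured 3.92, 4.31 and 3.03 in CASIN-treated replicates 1 to 3 and was 7.20, 1.78, 3.82 and 2.49 in aged replicates 2 to 5, with aged replicate 0 undetected. All CASIN-treated libraries were above all young libraries. Young minus CASIN-treated was -3.19 (SE 1.31, unadjusted p = 0.0331, adjusted p = 0.9995, limma), and -2.91 without CASIN-treated replicate 2 (unadjusted p = 0.0913). The unadjusted p was 0.0874 with limma-trend and 0.0843 with the percentage of genes detected as a covariate.

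Among the paralogs, Gata3, the GATA factor of T cell development that HSCs also express, measured 7.02, 6.47, 5.23 and 4.15 in young, 4.39, 1.91, 3.30, 1.30 and 1.36 in aged, and 4.64, 4.37 and 4.85 in CASIN-treated libraries. The aged libraries were lowest, with aged replicate 0 reaching into the range of the others. Young minus aged was 3.26 (SE 0.77, unadjusted p = 0.00149, adjusted p = 0.516, limma). CASIN-treated minus aged was 2.17 (SE 0.84, unadjusted p = 0.0260, adjusted p = 0.948, limma), or 2.29 without replicate 2 (unadjusted p = 0.0462). With limma-trend the unadjusted p was 0.0154 for young against aged and 0.125 for CASIN-treated against aged. Lmo1, the LIM-only relative of Lmo2, measured 5.01, 3.02 and 4.15 in young replicates 2, 3 and 5 and at most 1.53 in any aged or CASIN-treated library. Young replicate 4 did not detect it and was the young library that overlapped. Its young minus aged difference was 2.35 (SE 0.80, unadjusted p = 0.0141, adjusted p = 0.764). Young minus CASIN-treated was 2.74 (SE 0.91, unadjusted p = 0.0124), or 2.55 without CASIN-treated replicate 2 (unadjusted p = 0.0403). With the percentage of genes detected as a covariate these were 1.80 and 2.42 (unadjusted p = 0.110 and 0.0348, limma). With limma-trend the unadjusted p was 0.0671 and 0.0611. Meis2, a paralog of Meis1, had means of 7.12 ± 0.77 (SD) in aged and 5.33 ± 0.91 in CASIN-treated HSCs. That difference was -1.78 (SE 0.74, unadjusted p = 0.0359, adjusted p = 0.948), or -2.22 without replicate 2. Its unadjusted p was 0.0696 with limma-trend and 0.0547 with the detection covariate.

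**Figure D4:**
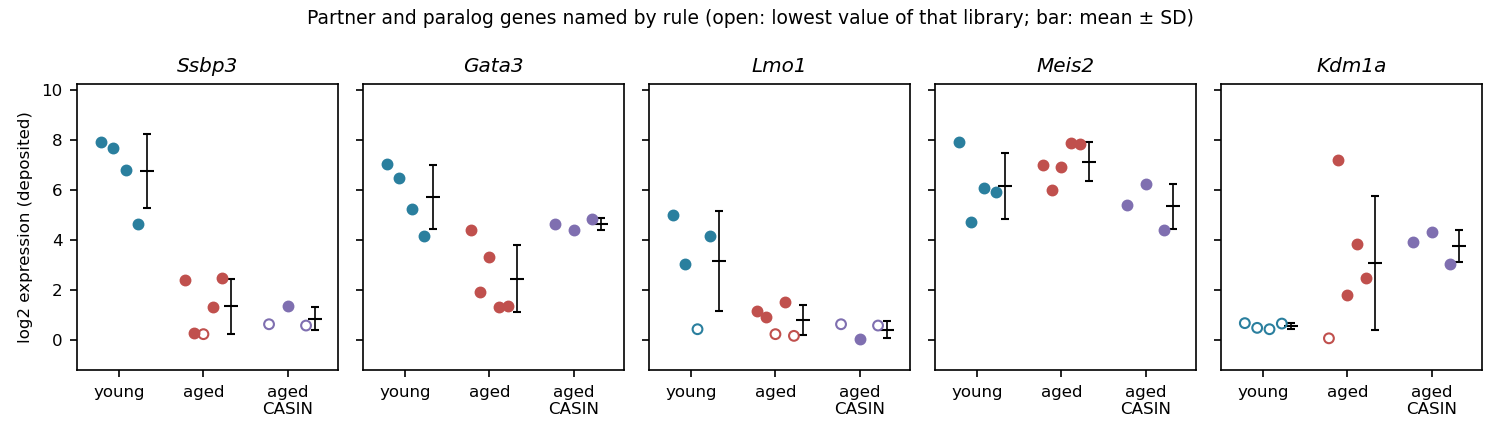
Deposited log2 value (y axis) of the 5 partner and paralog genes described above in each library, by group, with open points at the lowest value of a library and bars for the mean ± SD. All 4 young libraries of Ssbp3 lie above its aged and CASIN-treated libraries, and Kdm1a is open in all 4 young libraries.

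Genes of other cell types were set beside these values. T cell markers were detected at a median of 2 of 5 in young, 5 of 5 in aged and 3 of 5 in CASIN-treated libraries, with summed log2 values of 15.3 to 19.6, 18.2 to 22.7 and 13.5 to 26.7. Endothelial markers were listed because Erg and Fli1 are also endothelial factors. They were detected in 30% of gene and library pairs in young, 76% in aged and 60% in CASIN-treated libraries, beside 34.3%, 62.6% and 50.5% over all genes. Their summed values were 3.27 to 13.8, 4.57 to 21.0 and 8.97 to 17.9. These sums, like those of the T cell markers, include the lowest values of undetected genes, which differ between libraries. Young replicate 5 detected none of the 5 endothelial markers. None of the 5 endothelial markers had an unadjusted p under 0.05 in any comparison (limma), and for young minus aged 1 was higher and 4 were lower. In young and aged libraries respectively, Cdh5 was detected in 1 of 4 and 5 of 5, Kdr in 2 and 5, Vwf in 1 and 4, Pecam1 in 2 and 4, and Emcn in 0 and 1. B cell markers were detected at a median of 2, 4 and 2 of 5 in young, aged and CASIN-treated libraries, megakaryocyte markers at 0.5, 2 and 1 of 5, mast cell and basophil markers at 1.5, 2 and 1 of 5, myeloid markers at 1.5, 3 and 1 of 8 and erythroid markers at 1, 2 and 0 of 6. At an unadjusted p under 0.05 (limma), 1 of 8 myeloid markers (Lyz2) and 1 of 5 mast cell and basophil markers (Gzmb) were higher in young than in aged HSCs, beside 5.33% of all genes called. Of those lists, 3 and 2 markers were lower in young. For CASIN-treated against aged, 1 myeloid (Ctsg) and 1 of 5 megakaryocyte markers (Pf4) were higher, beside 4.4% of all genes. Of those lists, 3 and 2 markers were lower. Ctsg and Pf4 were detected in CASIN-treated replicate 2 alone and in no aged library. Their differences therefore include the higher lowest values of replicates 1 and 3. The part of these cells in the result for Erg was not tested.

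**Figure D5:**
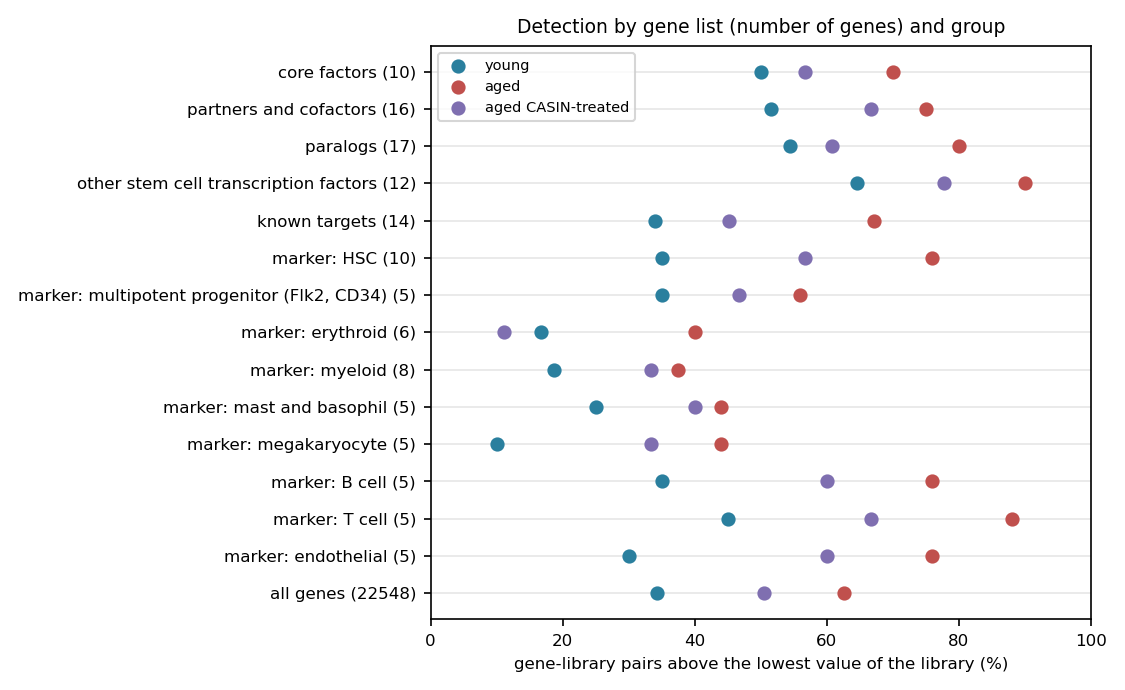
Percentage of gene and library pairs detected (x axis) for each list of genes and for all genes (y axis), with 1 point per group and the number of genes of each list in brackets. The 10 factors (core factors) lie at 50% in young, 56.7% in CASIN-treated and 70.0% in aged libraries, and aged libraries detect the most in every list shown.

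The genes most like each factor over the 12 libraries were named for the 7 factors detected in at least 6 libraries, by Pearson correlation among 11584 other genes. For Erg they were Lin37 (0.99) and Olfr1372-ps1 (0.95), and for Tal1 they were Fam189a1 (0.97) and Slc30a7 (0.96). Gata2 was most like Ankrd34c (0.96) and Rpl6 (0.92), and Lyl1 was most like Hoxb1 (0.96) and Rhot2 (0.91). The values of Meis1 were closest to those of Vmn2r99 (0.91) and Bccip (0.86), those of Runx1 to Sh3rf2 (0.87) and 4933431E20Rik (0.84), and those of Fli1 to Zfp11 (0.88) and Rnf145 (0.88). None of these 14 genes is in the lists of partners, paralogs, stem cell factors or targets, and with 12 libraries that differ in detection these likenesses are descriptions.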

How the data were processed

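RNA-seq was available for 4 libraries of young HSCs, 5 of aged HSCs and 3 of aged HSCs given CASIN, grouped by their labels. The authors trimmed reads with trim galore, aligned them to mm10 with TopHat and processed them with Cufflinks, and deposited log2 expression values, quantile normalized, for 22548 genes. The step from Cufflinks output to these values is not given in the sources used here. Quantile normalization draws the libraries towards a common distribution, so changes in total RNA cannot be seen. The libraries still differed at the low end. Lowest values ran from 0, held by 2535 genes in CASIN-treated replicate 2, to 0.67, held by 16470 genes in young replicate 2.

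The deposited log2 values were fitted with limma 3.58.1 in R 4.3.3 (two-sided, 3 groups, 12 libraries, no filter), with Benjamini-Hochberg adjustment over all genes at 0.05. A gene was detected above the lowest value of its library (tolerance 1e-09). The test was tried on simulated data. Figures used matplotlib 3.10.9, and positions are from GENCODE M21 (mm10). All 10 factors are named, with up to 3 genes per list and comparison at an unadjusted p under 0.05, and the 2 genes most like each factor detected in at least 6 libraries. The factors and lists were chosen with earlier results of these data known. Alternatives covered lowest values, scaling, filters, pseudocount, variance models, weights, covariates, replicate numbers and single libraries left out; those for the listed genes and the medians were chosen after seeing the data.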

Additional observations from a re-analysis of the deposited data

Results flagged for a closer look

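In 4 of the 32 groups of 4 or 5 libraries that were checked, 1 library lay farther from the others than Dixon's 95% limit. That limit assumes normally distributed values. A group with its other libraries at their lowest values passes it easily, so the count cannot be set against a chance rate. In young HSCs, Tal1 was 5.48 in replicate 5 and between 0.43 and 0.67 in the others, and Gfi1 was 2.54 in replicate 4 and between 0.48 and 0.67 in the others. In aged HSCs, Lmo2 was 2.40 in replicate 5 and between 0.018 and 0.23 in the others, and Spi1 was 0.98 in replicate 0 and between 0.16 and 0.29 in the others. In each case the distant library was one that detected the gene, and all others were at or near their lowest value.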

How the results depend on the processing

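Over 690 differences of the factors under alternatives or with a library left out, none passed an adjusted p of 0.05 and 30 changed sign, and 18 of the 30 differences kept their sign throughout. The number of factors at an unadjusted p under 0.05 for young against aged (2) was 1 among genes detected in at least 6 libraries and 0 with a mean of at least 3, which remove Lmo2 and then Erg (6.79% and 7.84% of the genes tested were called), and 2 to 3 with 1 library left out (5.04% to 5.67%). For CASIN-treated against aged (1) it was 0 with a mean of at least 3 (5.29% of genes), 0 with limma-trend (5.34%), and 1 to 2 with 1 library left out (4.08% to 7.18%). For young against CASIN-treated (0) it was 1 with centring (4.08% of genes), 1 with only those groups fitted (3.62%), 2 with the detection covariate (4.59%), and 0 to 1 with 1 library left out (4.06% to 5.82%).

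Signs changed for young minus aged with a common lowest value (Gfi1 -0.32, Spi1 -0.25), array weights (Gfi1 -0.020) and the detection covariate (Lyl1 -0.23). They changed for CASIN-treated minus aged with centring (Runx1 0.18, Gfi1 0.14), the detection covariate (Runx1 0.058) and a pseudocount of 0.1 (Gfi1 0.075), and for young minus CASIN-treated with that pseudocount (Lyl1 0.20). Centring adds 0.35 to every CASIN-treated minus aged difference. The common lowest value changes only undetected values, which lay at 0.43 to 0.67 in young and at 0.018 to 0.23 in aged libraries. The cause of the sign changes in the remaining settings was not tested. Leaving out 1 library gave ranges that crossed 0 for young minus aged of Gata2 (-0.78 to 1.34) and Gfi1 (-0.41 to 0.52). The same held for CASIN-treated minus aged of Runx1 (-0.90 to 1.07), Fli1 (-0.26 to 1.61), Gfi1 (-0.44 to 0.24) and Kdm1a (-0.069 to 1.71), and for young minus CASIN-treated of Lyl1 (-1.94 to 1.79), Tal1 (-0.62 to 1.16) and Gfi1 (-0.20 to 0.49).

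Deviations of same-numbered libraries of different groups had correlations of -0.033 to 0.058 over 8 pairs, beside -0.047 to 0.033 over 39 differently numbered pairs. Correlations this weak cannot tell if same-numbered libraries shared a mouse or a day, so pairing is unknown. With the replicate block, 1 factor (Erg) in place of 2 had an unadjusted p under 0.05 for young against aged (5.2% of all genes), and signs changed for Gfi1 (young minus aged, -0.16), Gata2 and Kdm1a (CASIN-treated minus aged, 0.63 and -0.49), and Runx1, Tal1 and Lyl1 (young minus CASIN-treated, 0.21, -0.86 and 1.80).

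Without counts, depth is unknown, and values at the lowest value of a library bound neither expression nor its absence. Only 3 factors had a mean of at least 3.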
